A study of Mus musculus with 16 samples.

Results

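The BMP and TGF-beta signalling genes, whose members were examined here, were 39 genes found by symbol among the 26411 genes counted in whole mouse embryos at E9.5. They comprised 14 ligands, 8 receptors, 5 antagonists, 8 SMADs and 4 Id genes. They were chosen by pathway membership and not by their values, though earlier results of these data were known. RNA was sequenced from 16 embryos, 4 of each of 4 genotypes. *Kat6a+/+Kat6b+/+* embryos were wild type. *Kat6a-/-Kat6b+/+* embryos, called null, were homozygous for an allele that lacks exons 5 to 9 of *Kat6a*, the gene of a histone lysine acetyltransferase. *Kat6a+/+Tg(Kat6b)* embryos, called transgenic, had both normal *Kat6a* alleles and a transgene that overexpresses *Kat6b*, the paralogue of *Kat6a*. *Kat6a-/-Tg(Kat6b)* embryos, called null transgenic, lacked KAT6A and carried the transgene. The transgene is a multicopy bacterial artificial chromosome with *Kat6b* and its own flanking sequence in a single transgenic line, so its effect cannot be told apart from that of its insertion site. The hybrid background of all embryos was FVB x BALB/c. The comparisons ask whether the components of these pathways depended on KAT6A, and whether they differed when KAT6B was overexpressed in its absence.

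Ligands of this family, the bone morphogenetic proteins (BMPs), growth and differentiation factors (GDFs), activins and TGF-betas, bind pairs of type I and type II receptor kinases at the cell surface. The type I receptor phosphorylates receptor-regulated SMADs, SMAD1, SMAD5 and SMAD9 downstream of BMPs and SMAD2 and SMAD3 downstream of TGF-beta and activin, which enter the nucleus with SMAD4. Secreted antagonists bind the ligands, and the inhibitory SMADs limit the signal inside the cell. The Id genes, which encode inhibitors of basic helix-loop-helix transcription factors, are direct transcriptional targets of BMP signalling in many cell types. At mid-gestation the family patterns the dorsal neural tube, heart, limb buds and pharyngeal region. mRNA levels do not measure SMAD phosphorylation or ligand protein.

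Each embryo had between 14407277 and 45665680 counts, and 15679 genes passed the filter on low counts. *Kat6b* was at 42.6 to 51.0 CPM (counts scaled to the TMM-normalised library size) in embryos without the transgene and at 155 to 227 CPM in those with it. *Kat6a* counts, from 138 to 218 CPM, cannot check the genotype because they are summed over the whole gene. Markers of 7 embryonic tissues were expressed in every group, with 6 of 6 genes over 1 CPM on each list, while 7 trophoblast and 5 decidua markers summed to at most 2.16 and 1.75 CPM in any embryo. Each genotype held 2 male and 2 female embryos. Litters 801 and 803 each held 1 wild-type and 2 null embryos, and litters 2597 and 2598 held a wild-type embryo each with 3 and 1 transgenic embryos. Null transgenic embryos came from litters 483 and 498, which held no other genotype here. In the library of transgenic replicate 1, the median log2 CPM of 932 genes over 8000 bases was 0.271 below that of the rest of its genotype. In the other 15 libraries this difference lay between -0.101 and 0.128.

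Of the 39 genes, 35 passed the filter. Id genes had the highest mRNA levels in wild-type embryos, compared between genes as RPKM (CPM divided by gene length in kilobases). *Id3* was at 183 ± 10.8 RPKM (SD, n = 4), *Id2* at 121 ± 1.91 RPKM and *Id1* at 66.2 ± 3.32 RPKM, and the ranges of these genes did not overlap. *Id4* was at 7.66 ± 1.66 RPKM, below the lowest of the other three Id genes in every wild-type embryo. Among the receptors the type I receptors *Tgfbr1*, at 45.8 ± 2.11 RPKM, and *Bmpr1a*, at 38.0 ± 0.503 RPKM, ranked first, and *Bmpr1b*, another type I receptor for BMPs, was the lowest at 2.57 ± 0.301 RPKM. *Smad3*, *Smad4* and *Smad5* were at 33.5 ± 0.117, 31.0 ± 1.37 and 27.5 ± 1.64 RPKM. *Smad9*, which like *Smad1* and *Smad5* acts downstream of BMPs, was at 1.29 ± 0.109 RPKM (SD, n = 4 for each).

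Ligands and antagonists were less abundant per length. *Bmp4* and *Bmp7* led the ligands at 15.4 ± 1.27 and 15.04 ± 0.819 RPKM, which differed by less than the spread between embryos. The TGF-beta ligands *Tgfb1*, *Tgfb2* and *Tgfb3* were at 6.52 ± 0.616, 5.496 ± 0.342 and 3.35 ± 0.213 RPKM. *Bmp5* was at 4.78 ± 0.292 RPKM, and *Bmp6*, *Gdf7*, *Gdf6* and *Bmp2* lay between 1.51 and 2.09 RPKM. *Fst*, encoding the activin-binding protein follistatin, and *Bambi*, encoding a receptor-like protein without a kinase domain, were at 8.57 ± 2.07 and 7.13 ± 0.475 RPKM. *Chrd*, encoding the BMP antagonist chordin, was the lowest of the tested genes at 1.20 ± 0.0257 RPKM (SD, n = 4 for each).

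**Figure D1:**
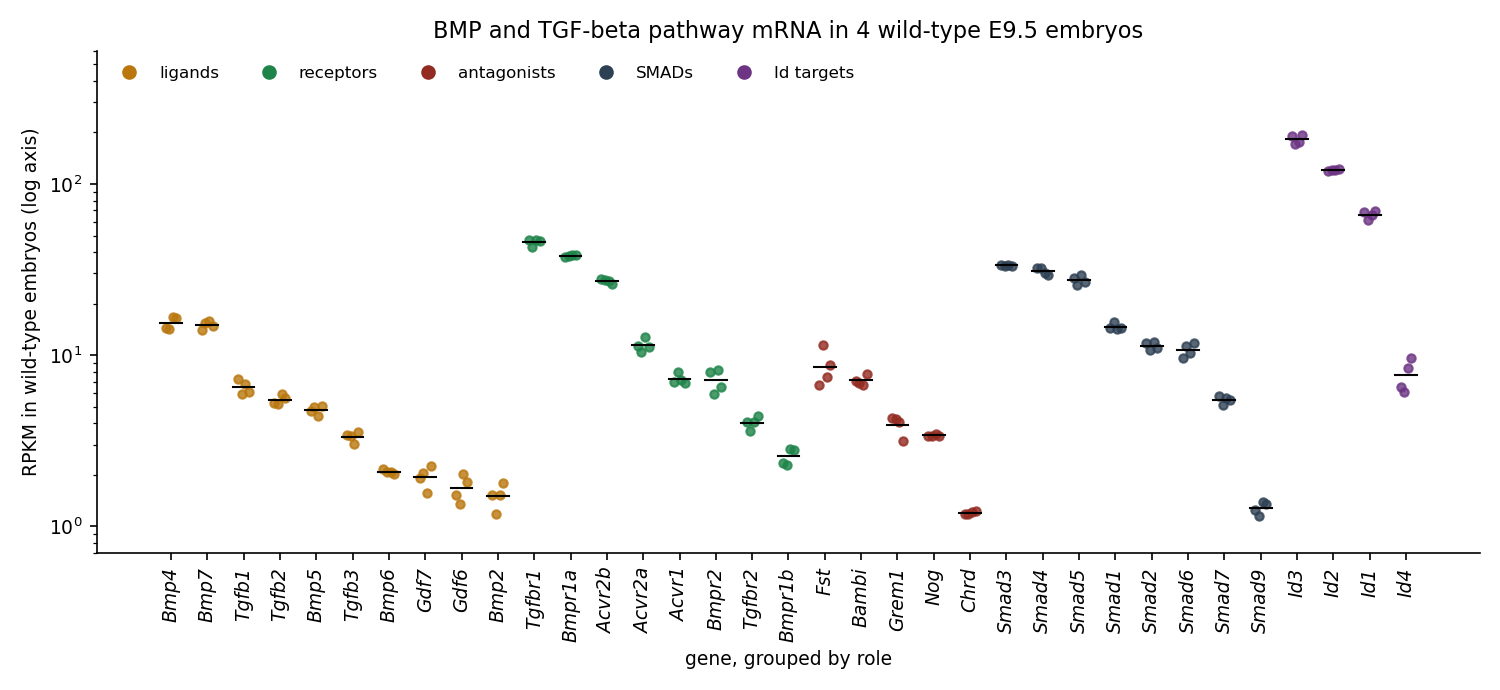
mRNA level in RPKM (log axis) of the 35 tested genes in the 4 wild-type embryos (points), with their mean (line), ordered within each role. *Id3*, *Id2* and *Id1* lie above all other genes, and the SMADs span from 33.5 RPKM for *Smad3* to 1.29 RPKM for *Smad9*.

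The remaining 4 genes, all ligands, were not tested. *Gdf3* had between 0 and 3 counts per embryo over all 16 embryos, *Gdf5* between 0 and 15, *Inhba* between 4 and 17 and *Inhbb* between 0 and 12. Whether these genes differed between genotypes was therefore not assessed in the fit reported, and the smallest difference that could be seen was not computed.

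The mean summed mRNA of each role group was similar across genotypes, though the ligand sums of null and null transgenic embryos did not overlap. The 8 receptors summed to 143 ± 3.91 RPKM in wild-type, 144 ± 6.01 in null, 139 ± 8.44 in transgenic and 147 ± 1.82 in null transgenic embryos (SD, n = 4 each). For the 8 SMADs the sums were 136 ± 1.56, 136 ± 2.71, 132 ± 2.32 and 136 ± 2.58 RPKM in the same order. The 14 ligands summed to 58.0 ± 2.21, 55.1 ± 1.93, 57.4 ± 3.64 and 60.7 ± 1.11 RPKM, the 5 antagonists to 24.2 ± 2.05, 23.6 ± 0.792, 24.2 ± 0.331 and 25.4 ± 2.04 RPKM. The ligand sums of null transgenic embryos, from 59.2 to 61.8 RPKM, lay above those of null embryos, from 52.5 to 57.0 RPKM. The 4 Id genes summed to 378 ± 15.1, 397 ± 28.7, 391 ± 27.6 and 388 ± 13.7 RPKM. In each of the other 4 role groups the ranges of null and null transgenic embryos overlapped. The receptor sum of transgenic replicate 1, the library with low long genes, was 126 RPKM. It was 140 to 144 RPKM in the other transgenic embryos.

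Of the 35 tested genes, 1 was called with loss of KAT6A. *Id4* was lower in null than in wild-type embryos at an edgeR FDR under 0.05, which is the p of its quasi-likelihood test after Benjamini-Hochberg adjustment over all 15679 genes, and none was higher. Its groups overlapped (two-sided exact permutation test, p = 0.114, 4 embryos against 4), and the call was lost in 6 of 16 fits that left out an embryo and in 5 of 12 other settings. The members called were 2.86% of those tested, against 1.88% of all genes, of which 0.938% of all genes were lower. At an unadjusted p under 0.05 there were 2 members, *Id4* and *Tgfb2*, or 5.71%, against 15.2% of all genes. The log2 fold changes of the 35 genes ran from -0.39 to 0.17 with a median of -0.0064, beside 0.0033 for all genes. For 33 of them, the exceptions being *Id4* and *Gdf6*, the 95% interval of the log2 fold change lay within 0.5 of zero. This held for all 8 receptors, all 8 SMADs and all 5 antagonists.

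No member passed the threshold in either genotype with the transgene vs. wild type. Between null transgenic and wild-type embryos, 0 members passed in the quasi-likelihood test of edgeR, against 0.67% of all genes. There were 6 members at an unadjusted p under 0.05, or 17.1%, against 12.7% of all genes. DESeq2 and limma-voom also called 0. Between transgenic and wild-type embryos, edgeR called 0 members, against 0.14% of all genes, and 6 members, or 17.1%, had an unadjusted p under 0.05, against 11.5% of all genes. DESeq2 called 1 there, *Bmpr2*, where it called 1.4% of all genes, as did edgeR without wild-type replicate 4, where it called 0.683% of all genes. The 95% interval lay within 0.5 of zero on the log2 scale for 31 and 32 of the 35 genes in these comparisons.

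The transgene in embryos without KAT6A went with 2 higher genes, *Tgfb2* and *Gdf6*, and none lower. They were 5.71% of the tested members, against 7.14% of all genes called in null transgenic vs. null embryos and 3.39% called higher. At an unadjusted p under 0.05 there were 10 members, or 28.6%, against 23.2% of all genes. In null transgenic vs. transgenic embryos, *Bmp5* and *Bmpr2* were higher, again 5.71% of members, against 3.41% of all genes called and 2.28% called higher. There, 10 members had an unadjusted p under 0.05 (28.6%), against 18.9% of all genes. In transgenic vs. null embryos, *Id4* was higher, against 5.46% of all genes, and *Bmp5*, *Bmpr2* and *Acvr2b* were lower, against 7.19% of all genes. These 4 were 11.4% of the members, against 12.7% of all genes called, and 7 members (20%) had an unadjusted p under 0.05, against 27.3% of all genes. The comparisons share groups of embryos and are not independent of each other. Null, transgenic and null transgenic embryos shared no litter with each other, so litter differences may add to those of genotype in these comparisons.

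**Figure D2:**
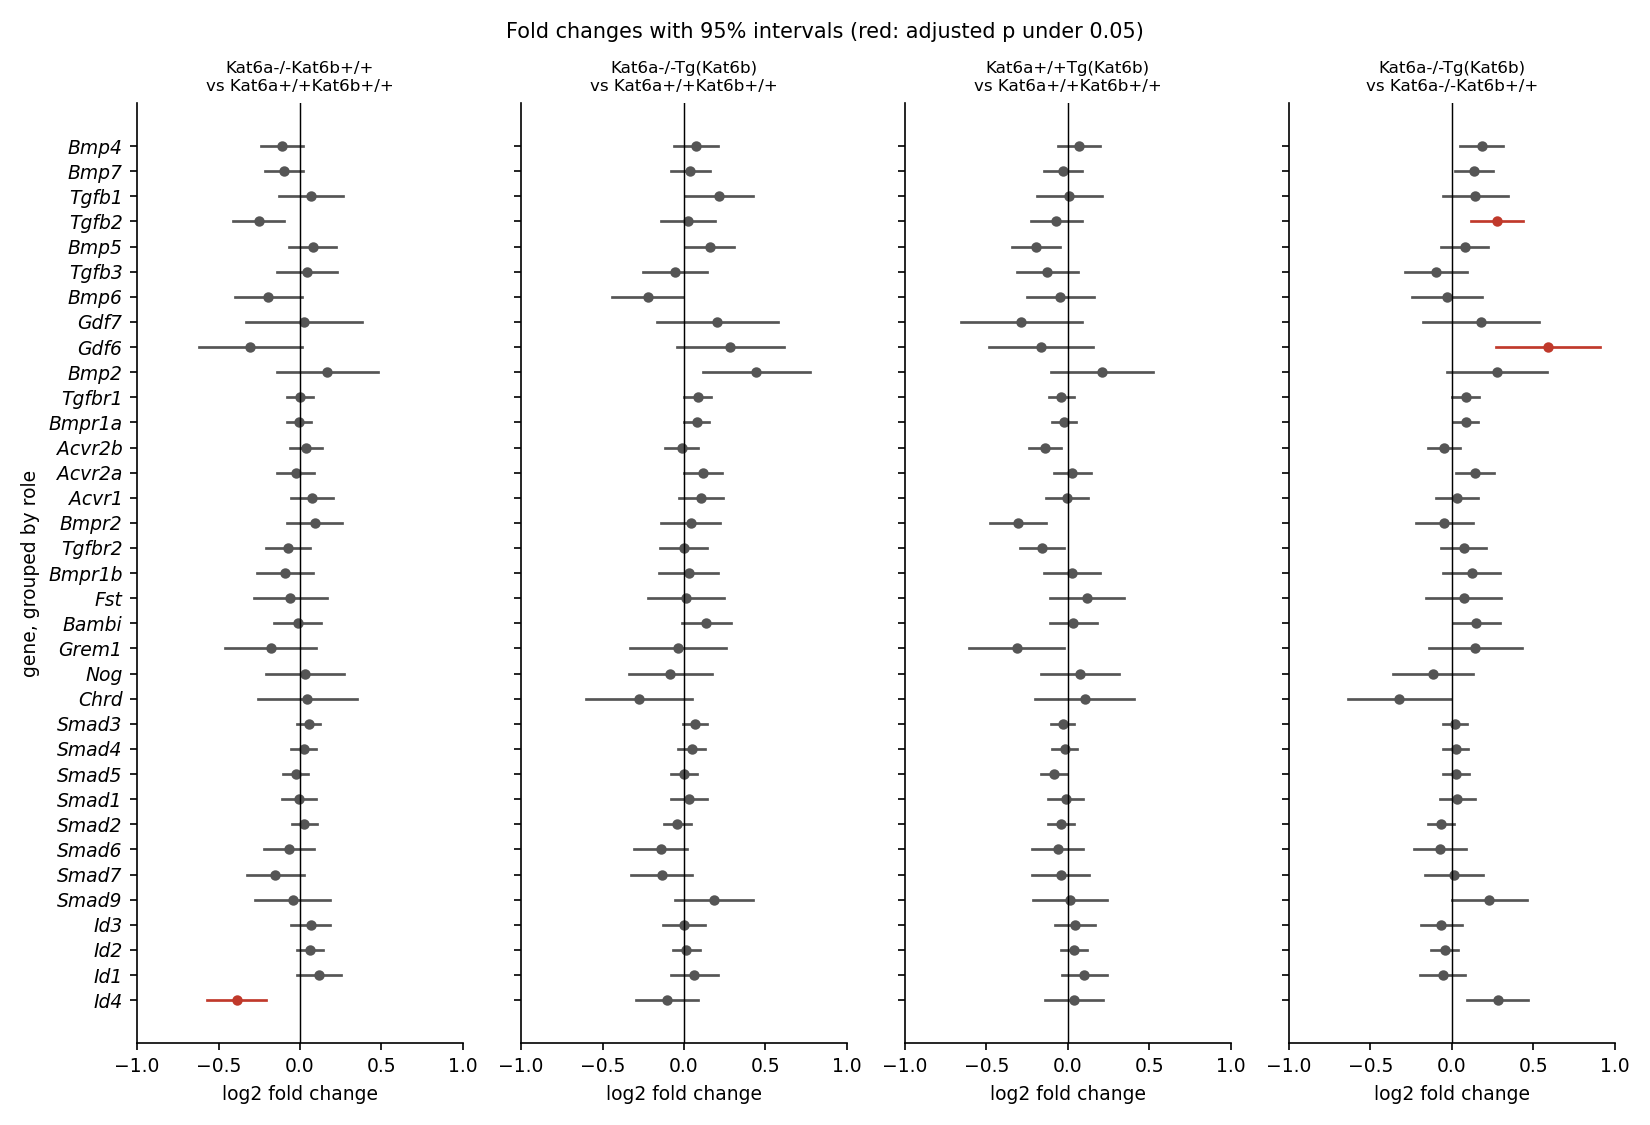
log2 fold change (points) with its 95% interval (lines) of the 35 tested genes, grouped by role, in 4 comparisons of genotypes from the edgeR fit over all 16 embryos. Red marks an adjusted p under 0.05, reached by *Id4* in null vs. wild type and by *Tgfb2* and *Gdf6* in null transgenic vs. null embryos.

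Whether the effect of losing KAT6A differed with the transgene was tested as an interaction. No member passed it in edgeR (0 against 0.153% of all genes), and 8 members (22.9%) had an unadjusted p under 0.05, against 14.6% of all genes. DESeq2 and limma-voom called 0 there as well, and without transgenic replicate 2 edgeR called 1, *Tgfb2*. Among these 8 it was largest for *Gdf6* (log2 0.76, standard error 0.219, edgeR FDR = 0.144), followed by *Grem1* (0.46, edgeR FDR = 0.303) and *Tgfb2* (0.35, edgeR FDR = 0.17).

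*Tgfb2*, encoding transforming growth factor beta 2, a ligand with roles in the heart and the neural crest, lies on the minus strand of chromosome 1 of GRCm39 from 186354985 to 186438294. Its level was 27.5, 26.8, 30.8 and 29.2 CPM in the wild-type embryos and 22.1, 25.6, 25.1 and 22.8 CPM in the null embryos. It was 26.8, 32.9, 25.6 and 24.7 CPM in transgenic and 29.1, 27.4, 29.1 and 28.3 CPM in null transgenic embryos (replicates 1 to 4 in each). Every null embryo lay below every wild-type and every null transgenic embryo, while transgenic embryos overlapped all groups. Null vs. wild-type embryos differed by a log2 fold change of -0.25 (standard error 0.0755) and did not pass the threshold (edgeR FDR = 0.0937), except without transgenic replicate 2 (-0.25, edgeR FDR = 0.0355). Within litter 801 the log2 CPM of the null embryos was 0.205 below that of the wild-type embryo, and within litter 803 0.167 below. In males the difference was -0.183 and in females -0.332.

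In null transgenic vs. null embryos *Tgfb2* rose by a log2 fold change of 0.28 (standard error 0.0774, 95% interval 0.117 to 0.439, edgeR FDR = 0.0327), which is 1.21-fold, and was higher in 4 of 4 embryos. The two-sided exact permutation test of the log2 CPM gave p = 0.0286, the smallest that 4 embryos against 4 allow. Compared with wild type, null transgenic embryos differed by 0.03 (95% interval -0.138 to 0.19). The call was lost without null replicate 1 or 4 or any 1 of the 4 null transgenic embryos (edgeR FDR from 0.0554 to 0.139, log2 fold change from 0.23 to 0.29), and without surrogate variables (0.25, edgeR FDR = 0.0762). It held in 8 of the 11 other settings.

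*Gdf6*, encoding a BMP-family ligand used in the eye, the joints and the dorsal neural tube, lies on the plus strand of chromosome 4 from 9844350 to 9862354. It was at 5.40, 4.75, 7.19 and 6.45 CPM in wild-type and at 3.32, 5.42, 4.14 and 5.52 CPM in null embryos. In transgenic embryos it was at 5.78, 5.33, 4.25 and 6.33 CPM and in null transgenic embryos at 7.41, 6.49, 7.28 and 5.67 CPM. Null transgenic embryos all lay above null embryos, the nearest by 5.67 against 5.52 CPM, and the other groups overlapped. *Gdf6* rose in null transgenic vs. null embryos by a log2 fold change of 0.59 (standard error 0.153, 95% interval 0.272 to 0.909, edgeR FDR = 0.0234), or 1.51-fold. Loss of KAT6A alone gave -0.31 (standard error 0.153, edgeR FDR = 0.349). In log2 CPM that difference was -0.348 within litter 801 and 0.00911 within litter 803. It was -0.0831 in males and -0.683 in females. Null transgenic embryos differed from wild type by 0.536 in males and -0.168 in females, and from null embryos by 0.62 and 0.516. The call in null transgenic vs. null embryos was lost without null replicate 1 or 3 or null transgenic replicate 1, 2 or 3 (edgeR FDR from 0.0554 to 0.112, log2 fold change from 0.44 to 0.57), and without surrogate variables (0.50, edgeR FDR = 0.0819). It held in 7 of the 11 other settings, over which the edgeR FDR ran from 0.00697 to 0.0905.

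These 2 genotypes shared no litter, so genotype and litter cannot be told apart for *Tgfb2* and *Gdf6*. The summed CPM of 8 yolk sac endoderm markers also differed between them, from 10.0 to 18.0 in null and from 41.1 to 53.4 in null transgenic embryos, with 15.4 to 56.1 in wild type and no marker at 0 in all embryos of either genotype. The most abundant of them, *Afp*, ran from 0.536 to 44.8 CPM over the 16 embryos. None of the 6 yolk sac markers tested was called between these genotypes. Of the 6 genes on each tissue list, 1 neural and 1 somite marker were called lower and 1 endoderm and 1 endothelium marker higher in null transgenic embryos. The part of these markers in the *Tgfb2* and *Gdf6* results was not tested. In whole embryos, fewer cells that express a gene and less RNA per cell cannot be told apart.

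The 250 bases before the annotated start of *Tgfb2* and *Gdf6* are shown because these ligands were higher in the same comparison. They were read from GRCm39 at the canonical GENCODE transcript, chr1:186438295-186438544 on the minus strand and chr4:9844100-9844349 on the plus strand. Capitals mark matches on either strand to the letters of 3 SMAD-binding motifs. These are the palindromes GTCTAGAC and GGCGCC and the element CAGACA, which reads TGTCTG on the opposite strand.
Tgfb2: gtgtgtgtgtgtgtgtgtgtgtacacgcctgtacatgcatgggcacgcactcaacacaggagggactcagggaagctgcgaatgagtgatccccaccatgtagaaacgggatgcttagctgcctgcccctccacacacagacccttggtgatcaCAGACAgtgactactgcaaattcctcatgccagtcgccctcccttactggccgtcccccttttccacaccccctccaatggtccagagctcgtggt
Gdf6: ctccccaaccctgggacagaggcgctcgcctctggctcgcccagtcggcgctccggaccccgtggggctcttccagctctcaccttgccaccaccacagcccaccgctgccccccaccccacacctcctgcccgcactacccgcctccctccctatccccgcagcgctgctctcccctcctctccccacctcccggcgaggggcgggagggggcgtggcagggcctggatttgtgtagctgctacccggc
*Tgfb2* held 1 match to CAGACA and *Gdf6* none to any motif. Windows of the same length held GTCTAGAC in 0.239%, GGCGCC in 9.31% and CAGACA in 15.6% of 21770 protein-coding genes, and in 1, 10 and 8 of the 39 genes studied here. A match is a run of letters and does not show that a SMAD is bound.

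*Bmp5*, a BMP ligand of the limb, branchial arches and heart, lies on the plus strand of chromosome 9 from 75682638 to 75807592. It was at 18.1, 19.1, 16.8 and 19.3 CPM in wild-type and at 18.1, 19.2, 19.2 and 20.4 CPM in null embryos. In transgenic embryos it was at 15.2, 17.5, 15.2 and 15.8 CPM, and in null transgenic embryos at 20.1, 20.8, 20.1 and 20.98 CPM. The transgenic embryos all lay below both genotypes without KAT6A, and 3 of 4 lay below all wild-type embryos. The log2 fold change was 0.35 (standard error 0.0753, edgeR FDR = 0.0148) in null transgenic vs. transgenic embryos and -0.27 (standard error 0.0691, edgeR FDR = 0.0122) in transgenic vs. null embryos. Loss of KAT6A without the transgene gave 0.08 (95% interval -0.0646 to 0.221) and the transgene alone -0.20 (edgeR FDR = 0.256).

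Without transgenic replicate 1 neither *Bmp5* call held (0.31, edgeR FDR = 0.0885, and -0.23, edgeR FDR = 0.0743), and without null replicate 4 the second was lost (-0.23, edgeR FDR = 0.0565). The first held in 11 of 11 other settings and the second in 11 of 12. Neither comparison was between genotypes that shared a litter, so litter differences may add to these calls. Exons of an annotated gene on the opposite strand, *Gm26903*, cover 46.6% of the exon bases of *Bmp5*. The library kit does not mark strand, so reads of the 2 genes cannot be told apart where they overlap. Summed markers of endothelium were at 317 to 347 CPM in transgenic and at 353 to 390 CPM in null transgenic embryos, and 2 of the 6 were called higher in the latter, as *Bmp5* and *Bmpr2* were, with 2 neural and 1 somite marker lower. In transgenic vs. null embryos, where *Bmp5*, *Bmpr2* and *Acvr2b* were lower, 3 of the 6 endothelium markers and 1 neural marker were lower, and 4 neural, 3 neural crest, 2 endoderm, 1 somite, 1 heart and 1 decidua marker higher. Their part in these results was not tested.

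*Bmp4*, the most abundant ligand in wild type, is required for mesoderm formation. It was at 29.6, 29.4, 34.2 and 33.8 CPM in wild-type, 29.3, 30.3, 27.5 and 29.5 CPM in null, 33.5, 36.8, 30.9 and 33.1 CPM in transgenic and 32.9, 30.9, 35.5 and 31.0 CPM in null transgenic embryos. The null embryos overlapped only the wild-type group. Its log2 fold change was -0.11 (standard error 0.062, edgeR FDR = 0.405) with loss of KAT6A and 0.18 (standard error 0.0632, edgeR FDR = 0.0773) in null transgenic vs. null embryos, neither past the threshold. Exons of genes on the opposite strand cover 31.1% of the exon bases of *Bmp4*. The same limit holds for *Acvr2b* (13.1%), *Id3* (11.8%) and *Id4* (10.3%). For the other genes described embryo by embryo, apart from *Bmp5*, this share was at most 4.73%.

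**Figure D3:**
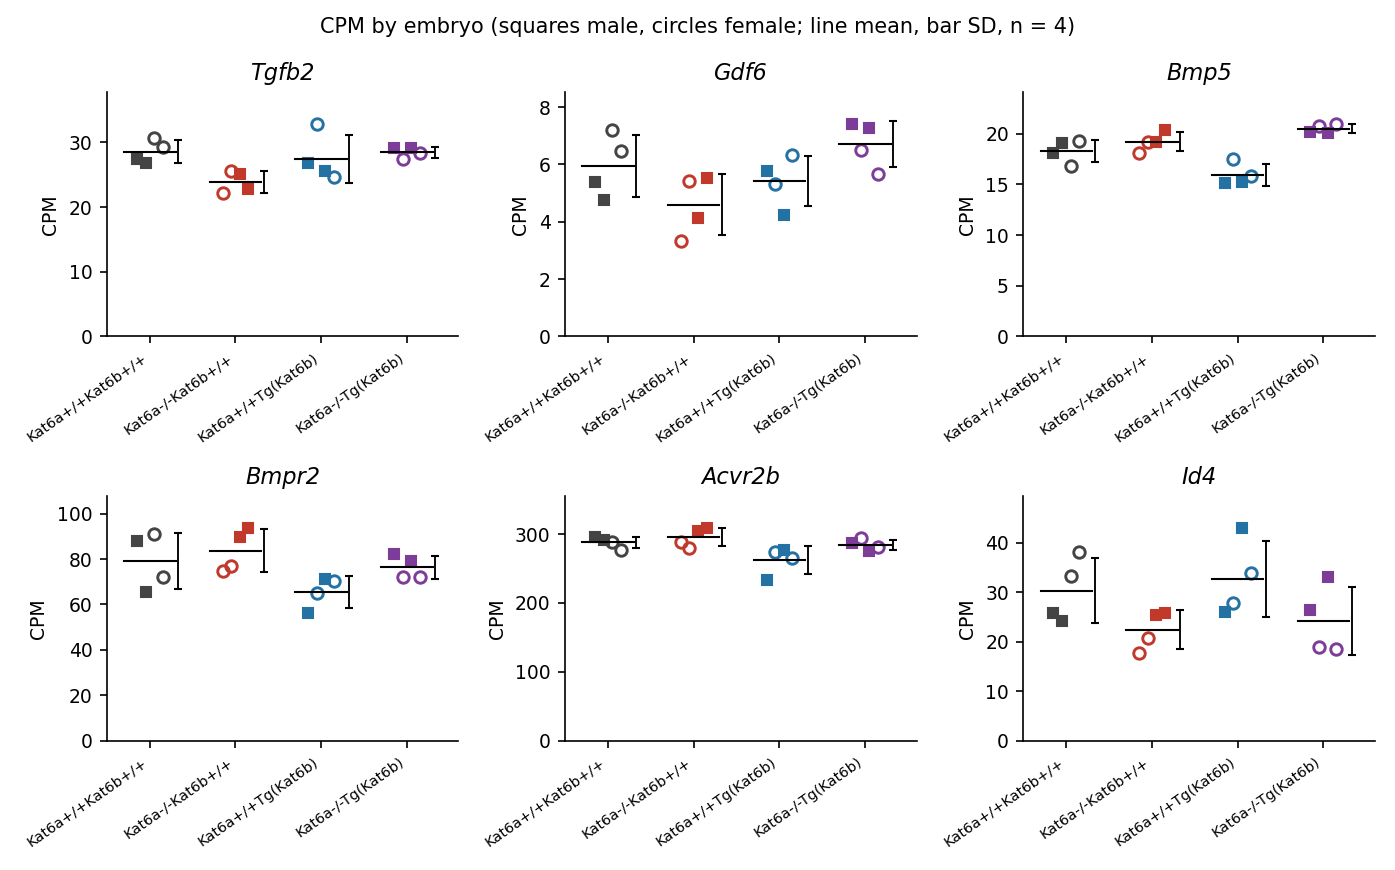
CPM of the 6 genes called in at least 1 comparison, by embryo and genotype (squares male, circles female, line mean, bar SD, n = 4). *Tgfb2* of the null embryos (22.1 to 25.6 CPM) lies below the wild-type embryos (26.8 to 30.8 CPM), and *Id4* overlaps between these groups.

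Of the 8 receptors, none was called in transgenic vs. wild-type embryos, 1 in null transgenic vs. transgenic and 2 in transgenic vs. null embryos. Of all genes, 0.14%, 3.41% and 12.7% were called in the same order. *Bmpr2*, encoding the type II receptor for BMPs, lies on the plus strand of chromosome 1 from 59802544 to 59918173 and is 11087 bases long in the count files. It was at 88.0, 65.4, 91.1 and 72.0 CPM in wild-type and at 74.8, 76.7, 89.6 and 93.6 CPM in null embryos. In transgenic embryos it was at 56.0, 64.9, 71.3 and 70.3 CPM, and in null transgenic embryos at 82.1, 72.0, 79.0 and 72.0 CPM. Transgenic embryos lay below both genotypes without KAT6A and overlapped wild type, whose own embryos spread over the whole range of the null transgenic group. The log2 fold change in transgenic vs. null embryos was -0.40 (standard error 0.0806, edgeR FDR = 0.00622), or 0.76-fold, and in null transgenic vs. transgenic embryos 0.35 (standard error 0.0886, edgeR FDR = 0.0468).

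*Acvr2b*, encoding a type II receptor for activins and several BMPs, lies on the plus strand of chromosome 9 from 119231103 to 119271213 and is 10666 bases long. It was at 296, 292, 288 and 277 CPM in wild-type, 289, 280, 304 and 309 CPM in null, 233, 274, 277 and 265 CPM in transgenic and 286, 294, 275 and 281 CPM in null transgenic embryos. The lowest value was that of transgenic replicate 1, and that genotype lay below null embryos without overlap. Its log2 fold change in transgenic vs. null embryos was -0.17 (standard error 0.0468, edgeR FDR = 0.0189), or 0.887-fold.

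With offsets that remove each library's trend against gene length, the log2 fold change of *Acvr2b* turned to 0.05 (edgeR FDR = 0.191) and that of *Bmpr2* in null transgenic vs. transgenic embryos fell to 0.12 (edgeR FDR = 0.217). *Bmpr2* in transgenic vs. null embryos was at -0.15 with them (edgeR FDR = 0.0315). This call was lost with no surrogate variable, with 1 and with sex as a covariate (log2 fold change -0.35 in each, edgeR FDR from 0.06 to 0.0659). With litter as a block it was lost as well (-0.45, edgeR FDR = 0.79), while it held in the 16 fits that left out an embryo. The litter-block fit left out the null transgenic embryos and used no surrogate variables. Null and transgenic embryos shared no litter, so it compared them only through the 1 wild-type embryo of each litter. Without transgenic replicate 1 the call of *Acvr2b* was lost (-0.09, edgeR FDR = 0.12), as it was without null replicate 1, 3 or 4. It held in 9 of the 12 other settings. Among the fits that left out an embryo, the *Bmpr2* call in null transgenic vs. transgenic embryos held only without wild-type replicate 1 or 4, null replicate 4 or transgenic replicate 4. It was lost in the 12 other fits that left out an embryo (log2 fold change from 0.27 to 0.38). It held in 4 of the 11 other settings, over which the edgeR FDR ran from 0.00251 to 0.333. These genotypes also shared no litter.

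**Figure D4:**
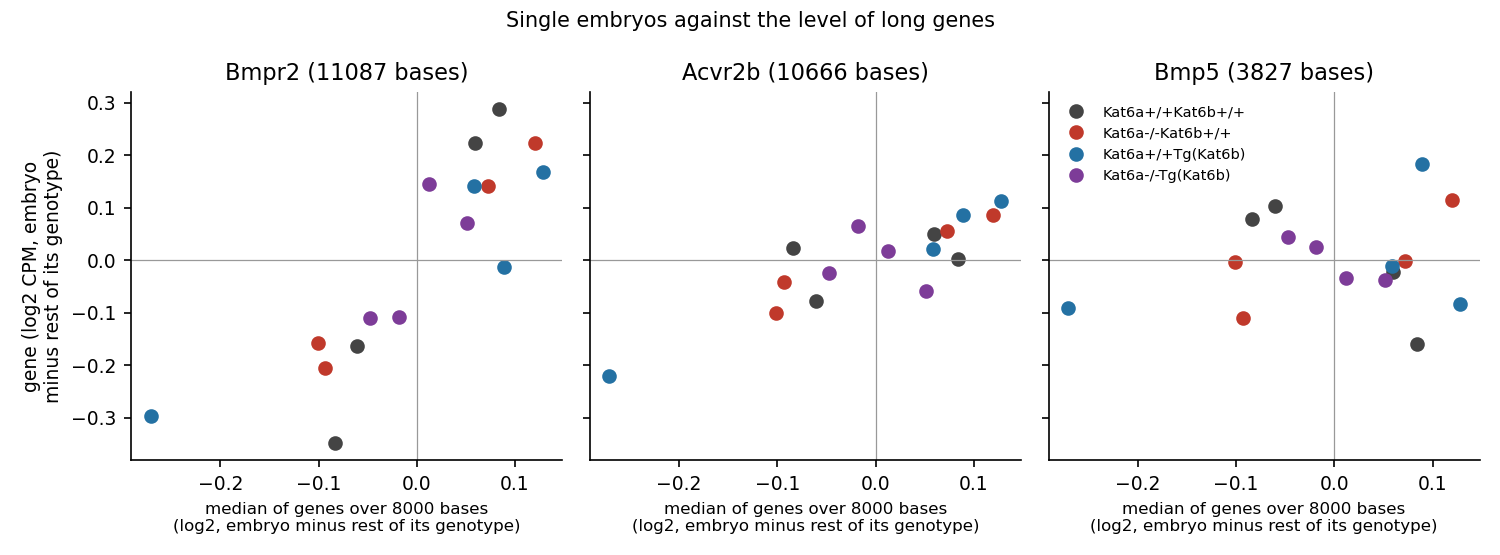
For each embryo, log2 CPM of *Bmpr2*, *Acvr2b* and *Bmp5* (vertical axis) against the median of the 932 genes over 8000 bases (horizontal axis), both as the difference from the rest of its genotype. Transgenic replicate 1, at -0.271 on the horizontal axis, has the lowest *Acvr2b* value, and the lowest *Bmpr2* values belong to embryos below zero on that axis.

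*Tgfbr1*, encoding the type I receptor for TGF-betas and the most abundant receptor in wild type, was at 284, 257, 283 and 280 CPM in wild-type, 262, 264, 282 and 293 CPM in null, 249, 269, 277 and 291 CPM in transgenic and 294, 278, 284 and 281 CPM in null transgenic embryos. All groups overlapped. Loss of KAT6A gave a log2 fold change of 0.0004 (95% interval -0.077 to 0.0778, edgeR FDR = 0.998). *Bmpr1a*, the abundant type I receptor for BMPs, had unadjusted p under 0.05 in 3 of the comparisons with null transgenic embryos, with log2 fold changes of 0.08 vs. wild type, 0.08 vs. null and 0.10 vs. transgenic embryos (edgeR FDR from 0.146 to 0.39). *Tgfbr2*, *Bmpr1b*, *Acvr1* and *Acvr2a* passed in no comparison.

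Antagonist mRNA passed the threshold in no comparison. *Fst* was at 19.2, 32.6, 21.2 and 25.1 CPM in wild-type, 25.1, 22.7, 22.1 and 24.0 CPM in null, 24.3, 24.8, 26.3 and 26.7 CPM in transgenic and 22.2, 30.2, 23.3 and 30.6 CPM in null transgenic embryos. The wild-type embryos alone spanned all other values, and the log2 fold change with loss of KAT6A was -0.06 (95% interval -0.284 to 0.166, edgeR FDR = 0.845). *Grem1*, encoding the BMP antagonist gremlin, had a log2 fold change of -0.32 in transgenic vs. wild-type embryos (edgeR FDR = 0.376). *Chrd* was at -0.32 in null transgenic vs. null and at -0.38 vs. transgenic embryos (edgeR FDR = 0.206 and 0.201). *Nog*, encoding noggin, and *Bambi* were between 5.55 and 7.64 CPM and between 32.2 and 41.7 CPM over all 16 embryos.

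SMAD mRNA had a median standard error of 0.044 (log2) with loss of KAT6A. The log2 fold changes there ran from -0.15 to 0.05, and none of the 8 SMADs passed the threshold in any comparison. *Smad3* was at 171, 170, 171 and 170 CPM in wild-type, 175, 173, 177 and 181 CPM in null, 158, 169, 165 and 176 CPM in transgenic and 182, 181, 175 and 174 CPM in null transgenic embryos. Both genotypes without KAT6A lay above the narrow wild-type range, by a log2 fold change of 0.05 (95% interval -0.0177 to 0.123, edgeR FDR = 0.485) and 0.07 (95% interval -0.0035 to 0.144, edgeR FDR = 0.419). For the inhibitory *Smad7* the log2 fold change of -0.15 with loss of KAT6A was the lowest of the SMADs, and *Smad6* also did not pass.

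Among the Id genes, *Id1*, *Id2* and *Id3* passed the threshold in no comparison. *Id3* was at 181, 164, 168 and 185 CPM in wild-type, 201, 193, 170 and 171 CPM in null, 194, 166, 167 and 193 CPM in transgenic and 173, 181, 169 and 187 CPM in null transgenic embryos. The groups overlapped. With loss of KAT6A the log2 fold changes of *Id1*, *Id2* and *Id3* were 0.12 (95% interval -0.0159 to 0.254), 0.06 (-0.0196 to 0.139) and 0.07 (-0.0551 to 0.186). They were 0.06, 0.02 and 0.0008 in null transgenic vs. wild-type embryos. In null embryos, replicates 1 and 2, the females of litter 801, had the higher values of *Id1* (91.1 and 94.2 against 77.2 and 74.3 CPM) and of *Id3*.

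*Id4*, which acts in neural progenitors and glia, lies on the plus strand of chromosome 13 from 48414558 to 48419502. It was at 25.8, 24.1, 33.3 and 38.2 CPM in wild-type and at 17.7, 20.8, 25.5 and 25.8 CPM in null embryos. In transgenic embryos it was at 26.1, 27.9, 43.0 and 33.8 CPM, and in null transgenic embryos at 26.4, 19.0, 33.05 and 18.6 CPM. The null embryos overlapped wild type, whose replicates 1 and 2 were near null replicates 3 and 4, and lay below all transgenic embryos. The log2 fold change with loss of KAT6A was -0.39 (standard error 0.0865, 95% interval -0.568 to -0.207, edgeR FDR = 0.0244), or 0.764-fold, in the fit with 2 surrogate variables. The two-sided exact permutation test of the log2 CPM gave p = 0.114. In transgenic vs. null embryos *Id4* was higher by 0.42 (standard error 0.086, edgeR FDR = 0.00339). In null transgenic vs. null embryos the log2 fold change was 0.28 (edgeR FDR = 0.0598) and vs. wild-type embryos -0.11 (95% interval -0.295 to 0.0845). Both came from the fit with 2 surrogate variables. Mean CPM was 30.4 in wild-type, 22.4 in null and 24.2 in null transgenic embryos. The groups overlapped (exact permutation test, p = 0.743 vs. null and p = 0.257 vs. wild-type embryos). In log2 CPM, null transgenic embryos differed from null by 0.205 in males and -0.0329 in females. From wild type they differed by 0.242 and -0.926.

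The *Id4* difference was uneven between sexes and litters. Between null and wild-type embryos the difference in log2 CPM was 0.0372 in males and -0.893 in females, where the null embryos were from litter 801 and the wild-type embryos from litters 2597 and 2598. Within litter 801 it was -0.427 and within litter 803 0.0857. With litter as a block, in a fit without null transgenic embryos or surrogate variables, the log2 fold change was -0.17 (edgeR FDR = 0.906). Without surrogate variables, over all embryos, it was -0.43 (edgeR FDR = 0.457). The call was lost without wild-type replicate 3 or 4, null replicate 1, 2 or 3 or null transgenic replicate 2 (edgeR FDR from 0.0577 to 0.182). The call in transgenic vs. null embryos was lost without null replicate 3 (0.33, edgeR FDR = 0.0611) and without surrogate variables (0.54, edgeR FDR = 0.152). It held in 7 of the 12 other settings, and these genotypes shared no litter. Summed neural markers were at 762 to 851 CPM in wild-type and 771 to 857 CPM in null embryos, and none of the 6 was called between them. Of the 6 markers on each of the other lists, 1 endoderm and 1 neural crest marker were called lower in null embryos. Summed yolk sac endoderm markers were at 15.4 to 56.1 CPM in wild-type and 10.0 to 18.0 CPM in null embryos, with none of the 6 tested called. In transgenic vs. null embryos 4 of the 6 neural markers were called higher and 1 lower. The part of these markers in the *Id4* results was not tested.

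**Figure D5:**
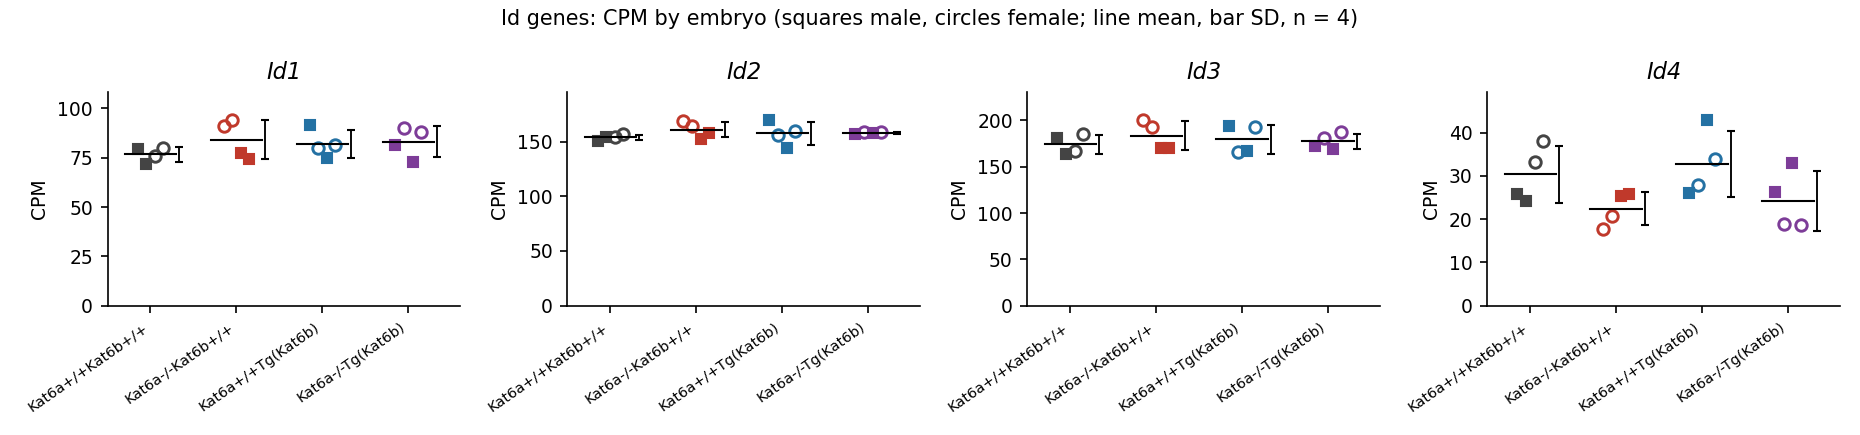
CPM of the 4 Id genes by embryo and genotype (squares male, circles female, line mean, bar SD, n = 4). *Id1*, *Id2* and *Id3* overlap across genotypes, and *Id4* of the female null embryos, at 17.7 and 20.8 CPM, lies below every wild-type embryo.

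The 250 bases before the annotated start of *Id1* and *Id4* are shown to set the abundant BMP target beside the less abundant one that was called. They lie at chr2:152577915-152578164 and chr13:48414308-48414557 of GRCm39, both on the plus strand, with the same motifs in capitals.
Id1: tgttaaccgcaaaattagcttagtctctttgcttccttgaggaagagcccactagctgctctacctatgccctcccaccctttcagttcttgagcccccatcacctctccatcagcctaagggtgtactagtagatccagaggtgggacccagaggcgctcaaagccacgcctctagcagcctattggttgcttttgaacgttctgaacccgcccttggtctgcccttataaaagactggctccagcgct
Id4: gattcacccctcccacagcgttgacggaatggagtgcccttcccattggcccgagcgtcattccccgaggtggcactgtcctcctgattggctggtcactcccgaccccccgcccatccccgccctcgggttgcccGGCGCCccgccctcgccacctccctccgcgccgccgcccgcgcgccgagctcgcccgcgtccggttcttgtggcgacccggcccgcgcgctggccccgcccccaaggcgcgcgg
*Id4* held 1 match to GGCGCC and *Id1* none to the 3 motifs. G and C made up 75.6% of the bases of the *Id4* window and 52.8% of the *Id1* window. SMAD-binding sequence outside these windows was not searched.

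Other members had an unadjusted p under 0.05 without passing the threshold. In null transgenic vs. wild-type embryos they were the ligands *Bmp2* (log2 0.45, edgeR FDR = 0.225), *Tgfb1* (0.21), *Bmp5* (0.16) and *Bmp6* (-0.22) and the receptors *Tgfbr1* and *Bmpr1a* (0.08 each). *Bmp2* was at 4.20 to 6.38 CPM in wild-type and at 6.91 to 8.21 CPM in null transgenic embryos, without overlap. In transgenic vs. wild-type embryos they were *Bmp5*, *Bmpr2*, *Acvr2b*, *Tgfbr2*, *Grem1* and *Smad5*, all with log2 fold changes below zero, from -0.09 to -0.32. The 8 in null transgenic vs. null embryos were *Bmp4*, *Bmp7*, *Bmpr1a*, *Acvr2a*, *Tgfbr1*, *Bambi*, *Id4* and *Chrd*, of which 7 had log2 fold changes above zero, from 0.08 to 0.28. Against transgenic embryos the 8 in null transgenic embryos were *Gdf7* (0.49, edgeR FDR = 0.158, without overlap of the groups), *Gdf6* (0.45, edgeR FDR = 0.128), *Chrd* (-0.38), *Tgfbr2* (0.16), *Acvr2b* and *Tgfbr1* (0.12 each), and *Bmpr1a* and *Smad3* (0.10 each). The 3 in transgenic vs. null embryos were *Bmp4* and *Tgfb2* (0.18 each) and *Smad3* (-0.08). The 8 in the interaction, *Gdf6*, *Grem1*, *Tgfb2*, *Bmp5*, *Bmpr2*, *Tgfbr2*, *Tgfbr1* and *Bmpr1a*, were all above zero, from 0.11 to 0.76.

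Other genes of the pathways, 75 further ligands, receptors, modulators, regulators and targets of which 62 were tested, were read against the same shares of all genes. This list was written with earlier results of these data known. It includes *Dlx5* and *Tbx20*, of families in which the paper reports genes lowered with loss of KAT6A. With loss of KAT6A 1 of the 62 fell (1.61%, against 1.88% of all genes called and 0.938% called lower). This was *Nbl1*, which encodes a secreted BMP antagonist. It was at 9.31 ± 0.597 CPM in wild-type, 5.93 ± 0.304 in null, 9.19 ± 0.661 in transgenic and 7.71 ± 1.74 in null transgenic embryos (SD, n = 4 each). The log2 fold change with loss of KAT6A was -0.63 (standard error 0.101, edgeR FDR = 0.00146). At an unadjusted p under 0.05 there were 10 of the 62 (16.1%), against 15.2% of all genes. In both transgenic genotypes vs. wild type, edgeR called 0 of the 62, with 7 (11.3%, against 12.7% of all genes) and 8 (12.9%, against 11.5%) at an unadjusted p under 0.05 in null transgenic and transgenic embryos. DESeq2 also called 0 in both.

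In null transgenic vs. null embryos 6 of the 62 rose and 0 fell, 9.68% against 7.14% of all genes called and 3.39% called higher. The largest were *Tbx20*, a cardiac T-box factor (log2 0.48, edgeR FDR = 0.0347), the homeobox gene *Dlx5* (0.43, edgeR FDR = 0.0212), *Nbl1* (0.42, edgeR FDR = 0.0186), the homeobox gene *Msx2* (0.41, edgeR FDR = 0.0123) and the ligand *Gdf10* (0.41, edgeR FDR = 0.0283). *Dlx5* was at 9.69 ± 1.13 CPM in wild-type, 7.43 ± 0.253 in null and 9.95 ± 0.809 in null transgenic embryos, and *Msx2* at 25.2 ± 4.00, 21.8 ± 1.83 and 27.9 ± 1.02 CPM (SD, n = 4 each). *Msx2*, *Dlx5* and *Tbx20* were still called without surrogate variables, and the other three were not. At an unadjusted p under 0.05 there were 19 of the 62 (30.6%), against 23.2% of all genes.

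In null transgenic vs. transgenic embryos 2 of the 62 were higher, *Ltbp1*, encoding a latent TGF-beta binding protein (log2 0.21, edgeR FDR = 0.0165), and *Smurf1*, encoding a ubiquitin ligase for SMADs (0.18, edgeR FDR = 0.0375). The inhibin subunit gene *Inha* was lower (-0.57, edgeR FDR = 0.0193). These 3 were 4.84% of those tested, against 3.41% of all genes called and 2.28% called higher, and none was called without transgenic replicate 1. At an unadjusted p under 0.05 there were 18 (29.0%), against 18.9% of all genes. In transgenic vs. null embryos 10 were higher, among them *Cer1* (0.80), *Dlx5* (0.63), *Mstn* (0.63), *Nbl1* (0.59) and *Msx2* (0.42), with edgeR FDR from 0.00064 to 0.0401. There 1 was lower, *Ltbp1* (-0.17, edgeR FDR = 0.0108), which is named after its value was seen. These 11 were 17.7% of those tested, against 12.7% of all genes called, 5.46% called higher and 7.19% called lower. At an unadjusted p under 0.05 there were 17 (27.4%), against 27.3% of all genes. No other pathway gene passed the interaction test in edgeR or DESeq2, with 17 (27.4%, against 14.6% of all genes) at an unadjusted p under 0.05. Without transgenic replicate 2 edgeR called 1, *Tbx20*.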

How the data were processed

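The authors deposited counts for each of 16 whole E9.5 embryos, the reads on each of 26411 genes without normalization, with gene lengths. The paper's methods state total RNA, a TruSeq kit and paired-end reads aligned to mm39 with Rsubread, and the submitters' processing notes name featureCounts and bcl2fastq. Annotation release, strand setting and handling of shared reads are not given in the sources used here.

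From the counts, edgeR 4.0.16 in R 4.3.3 was fitted over all embryos with the robust quasi-likelihood test. Genes were kept by filterByExpr (minimum count 10, minimum total 15), libraries scaled by TMM (factors 0.985 to 1.02), and 2 surrogate variables from sva 3.50.0 (20 permutations) were covariates. The first surrogate variable was below zero in every male and above zero in every female embryo. The second did not separate the sexes (-0.479 to 0.254 in males and -0.409 to 0.372 in females). What it reflects was not tested. P-values were Benjamini-Hochberg adjusted over 15679 genes, with 0.05 as threshold. On simulated null vs. wild-type data with 200 genes changed 2-fold among 15534, edgeR called 194 of them and 9 others. The changed genes were drawn from the more abundant ones, and no litter, sex or gene-length differences were simulated. The simulation therefore does not measure sensitivity to the smaller fold changes of the members. Single values were compared by exact permutation tests (smallest p 0.0286). Totals of 14407277 to 45665680 counts limit the precision for genes with few counts. Libraries of a genotype differed beyond sampling noise (chi-square per degree of freedom 1.83 to 15.8), so none repeated the counts of another. The lowest value was between null transgenic replicates 2 and 4. This check cannot tell whether 2 libraries came from 1 embryo. Members were matched by symbol, and positions and starts come from GENCODE, where all 39 matched.

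Genes described embryo by embryo were those past the threshold in any comparison and the most abundant of each role. Other pathway genes were named where past the threshold, at most the 5 largest per comparison. The members and gene lists were chosen with earlier results of these data known. Alternatives were DESeq2 1.42.0, limma-voom (limma 3.58.1), other normalization, filters, covariates and blocks, and leaving out each embryo. Length-trend offsets were added after the counts had been examined.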

Additional observations from a re-analysis of the deposited data

Results flagged for a closer look

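Among 140 groups of 4 embryos, the 35 tested genes in 4 genotypes, 3 values stood apart from the others of their group by Dixon's criterion at the 95% level, where chance flags about 1 group in 20. *Tgfb1* was at 12.1 CPM in transgenic replicate 4, below 14.9 to 15.4 CPM in the other embryos. *Tgfbr1* was at 257 CPM in wild-type replicate 2, below 280 to 284 CPM. *Smad1* was at 46.8 CPM in the same embryo, above 43.0 to 43.4 CPM.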

How the results depend on the processing

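Each count of called genes is given for the 35 tested members and for the 62 other tested pathway genes. With no surrogate variable, with 1 and with sex as a covariate alike, the counts of members fell to 0 with loss of KAT6A (1 in the fit reported), 0 in null transgenic vs. null (2), 1 in null transgenic vs. transgenic (2) and 2 in transgenic vs. null embryos (4), and that of other genes in the second of these to 3 (6). Calls over all genes fell as well, to 0.58 to 0.612% (1.88%), 3.76 to 3.92% (7.14%), 2.56 to 2.65% (3.41%) and 9.15 to 9.51% (12.7%). With only the 2 genotypes compared, members were 0, 1, 1 and 2 in the same order, and other genes were 7 in the last (11) and 1 in null transgenic vs. wild-type embryos (0), with 0.565, 7.37, 1.74, 7.62 and 0.765% of all genes in these 5 comparisons. DESeq2 called 1 member in transgenic vs. wild-type embryos (0) and 5 other genes in null transgenic vs. transgenic embryos (3), with 1.4 and 5.63% of all genes, and with no filter 1 member was called in the latter (2), with 2.4% of all genes. With litter as a block, members and other genes were 0 and 0 both with loss of KAT6A and in transgenic vs. null embryos, against 0.116% and 0.0515% of all genes. That fit left out the null transgenic embryos and the surrogate variables, and compared null with transgenic embryos only through wild-type littermates. Length-trend offsets gave 2 other genes with loss of KAT6A (1), with 2.96% of all genes, and reversed *Acvr2b* in transgenic vs. null embryos to 0.0548. The cause of these changes was not tested.

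Deviations of same-numbered embryos of different genotypes had correlations from -0.255 to 0.215 (24 pairs, median 0.0442, 10 over 0.1). Those of other pairs ran from -0.258 to 0.272 (72 pairs, median -0.00592, 19 over 0.1). The check cannot decide whether the numbers mark pairs, and the fit reported assumed none. With replicate number as a block, 1 member (2) and 1 other gene (3) were called in null transgenic vs. transgenic, and 3 (6) and 7 (11) other genes in null transgenic and transgenic vs. null embryos, with 1.82, 6.02 and 11.5% of all genes.

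Leaving out 1 embryo at a time, members ranged from 0 to 2 with loss of KAT6A, 0 to 0 and 0 to 1 in null transgenic and transgenic vs. wild type, 0 to 4 in null transgenic vs. null, 0 to 3 in null transgenic vs. transgenic, 2 to 6 in transgenic vs. null embryos and 0 to 1 in the interaction. Other genes ranged, in that order, from 1 to 2, 0 to 0, 0 to 0, 1 to 7, 0 to 5, 4 to 12 and 0 to 1. Calls over all genes in the same fits ranged, in that order, from 0.866 to 2.74%, 0.247 to 1.33%, 0.00633 to 0.683%, 3.11 to 10.6%, 1.04 to 5.54%, 7.9 to 13.4% and 0.101 to 0.513%. Among the fold changes of the 11 genes described embryo by embryo, no called value other than that of *Acvr2b* changed sign in the settings tried. The lowest or highest counts came without null replicate 1 or null transgenic replicate 1, 2 or 3 (0) and transgenic replicate 3 (4, with *Id4* and *Bmp4*) for members in null transgenic vs. null, without transgenic replicate 1 (0 members and 0 other genes) in null transgenic vs. transgenic, and without null replicate 4 or transgenic replicate 1 (4 other genes) in transgenic vs. null embryos.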
